A study of Mus musculus with 40 samples.

Results

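MERVL is a family of mouse endogenous retroviruses. In the annotation of transposable elements (TEs) its internal part is named MERVL-int and its long terminal repeat (LTR), which flanks the internal part on both sides, is named MT2_Mm. All annotated copies under these 2 names were followed here through the passage of mouse embryonic stem cells (mES cells) to epiblast-like cells (EpiLCs), in wild type (WT) cells and in cells without lamins, without the lamin B receptor LBR, or without both. The members were 4732 copies, 2066 of MERVL-int and 2666 of MT2_Mm, of 3799629 TE copies in the table of uniquely mapped reads, together with the MERVL-int and MT2_Mm families, 2 of the 1243 TE families in the table of multimapped reads. The rule that picks them uses the annotated name and no measured value, although the 2 families were taken up with earlier results of these data known.

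As background, the LTR of an endogenous retrovirus holds its promoter and its polyadenylation signal, and the internal part holds the remains of the viral genes. Recombination between the LTRs of a single insertion removes the internal part and leaves a solo LTR, so MT2_Mm copies stand either at the ends of a provirus or alone. MERVL is transcribed in the 2-cell mouse embryo when the zygotic genome is first expressed, and in the small fraction of cultured mES cells known as 2-cell-like cells. The transcription factor DUX binds MT2_Mm and activates it together with genes of the 2-cell stage such as the *Zscan4* cluster, and some host genes use an MT2_Mm copy as their promoter.

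Total RNA, depleted of ribosomal RNA, was sequenced from 40 cultures of mouse cells. mES cells were held in the naive state by LIF and by inhibitors that block MEK and GSK3, and were collected at 48 h. EpiLCs, which resemble the epiblast around implantation, had by their collection spent 48 h with FGF at 20 ng/mL and Activin A at 12 ng/mL. At each stage there were 8 WT libraries, 4 libraries of LBRKO cells (*Lbr* disrupted in WT cells), 4 of TKO cells (deletion of *Lmna*, *Lmnb1* and *Lmnb2*, from a littermate of the WT line) and 4 of QKO cells (*Lbr* disrupted in the TKO line). All libraries of a genotype came from separate wells, so the spread between them is the spread between wells. QKO was a single clone, the number of clones behind the LBRKO libraries is not given in the sources used here, the TKO line carried an extra chromosome 8, and a part of the WT line carried extra chromosomes 6 and 8.

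Gene counts reached 22594640 to 48863506 reads per library and counts over TE copies 2755710 to 7833570. Uniquely mapped reads on members were few, at 692 to 4418 per library for MERVL-int and 510 to 1840 for MT2_Mm. Expression is given as CPM, counts scaled to a common library size. For genes and single copies this size was set by the genes, so that a rise in many TEs at the same time is not scaled away. For the multimapped family values it was set by genes and TE families together, where 1142 of 26508 tested rows were TE families. The stage labels matched their markers in WT cells: all 6 listed genes of the naive state fell from mES cells to EpiLCs, by 3.39 to 9.03 on the log2 scale, and all 4 listed EpiLC genes rose, by 3.74 to 10.53. *Lmnb1*, which encodes lamin B1, fell from 515 CPM in WT mES cells to 8.47 in TKO and 13.8 in QKO. The frameshift in *Lbr* left much of its RNA: LBRKO EpiLC replicates 1 and 2 held 403 and 392 CPM, inside the range of WT EpiLCs (364 to 513), and replicates 3 and 4 held 196 and 233. The WT libraries were also compared as 2 sets, replicates 1 to 4 and 5 to 8, a choice made after seeing that they differed. Deviations from the group mean had a median r of 0.099 and 0.096 within the sets and -0.31 between them in mES cells, and of -0.022 and -0.008 within and -0.24 between in EpiLCs. Deviations from a shared mean correlate slightly negatively by construction, so the split is weak in EpiLCs, and no r between the sets was above -0.088.

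The MT2_Mm sequences below show what the copies share before their expression is compared. Each is the first 300 bases of an LTR on its own strand (GRCm39), in lower case, with GATTGAATC in capitals. This is the reverse complement of GATTCAATC, the core of the site bound by DUX, which was searched on both strands. The first 4 are the upstream LTRs of complete proviruses described further on, and the last 2 are solo LTRs. They were chosen after their expression was seen: 3 proviruses and the solo LTR at chromosome 7 lay high in QKO cells, the provirus near *Mpv17l* has a shortened LTR, and the solo LTR at chromosome 9 lost its reads between the stages.
Provirus in an intron of Tubgcp2, LTR at chr7:139607349-139607648, minus strand: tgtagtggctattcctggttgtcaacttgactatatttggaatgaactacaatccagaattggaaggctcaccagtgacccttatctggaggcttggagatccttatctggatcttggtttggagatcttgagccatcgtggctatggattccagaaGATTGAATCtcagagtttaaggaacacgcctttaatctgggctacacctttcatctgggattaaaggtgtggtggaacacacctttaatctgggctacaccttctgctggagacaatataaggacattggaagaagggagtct
Provirus at Mpv17l, LTR at chr16:13726217-13726516, plus strand: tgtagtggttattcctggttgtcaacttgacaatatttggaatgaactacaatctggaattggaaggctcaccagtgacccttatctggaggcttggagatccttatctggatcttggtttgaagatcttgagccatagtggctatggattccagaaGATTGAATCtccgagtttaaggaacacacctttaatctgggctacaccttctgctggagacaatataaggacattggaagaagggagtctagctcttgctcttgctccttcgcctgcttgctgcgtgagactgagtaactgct
Provirus outside genes, LTR at chrX:13189980-13190279, minus strand: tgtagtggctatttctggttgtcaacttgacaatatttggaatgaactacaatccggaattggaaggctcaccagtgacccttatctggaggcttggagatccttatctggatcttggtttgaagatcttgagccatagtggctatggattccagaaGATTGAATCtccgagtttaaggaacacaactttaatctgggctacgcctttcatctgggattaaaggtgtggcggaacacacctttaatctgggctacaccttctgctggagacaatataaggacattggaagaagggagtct
Provirus outside genes, LTR at chr1:36070558-36070857, plus strand: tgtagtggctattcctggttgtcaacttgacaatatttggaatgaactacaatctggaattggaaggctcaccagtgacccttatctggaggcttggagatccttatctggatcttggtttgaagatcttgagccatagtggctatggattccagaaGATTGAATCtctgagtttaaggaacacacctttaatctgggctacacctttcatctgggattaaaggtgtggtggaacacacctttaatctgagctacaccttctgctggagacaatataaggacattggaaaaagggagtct
Solo LTR over an exon of Gm55624, chr9:108530828-108531127, minus strand: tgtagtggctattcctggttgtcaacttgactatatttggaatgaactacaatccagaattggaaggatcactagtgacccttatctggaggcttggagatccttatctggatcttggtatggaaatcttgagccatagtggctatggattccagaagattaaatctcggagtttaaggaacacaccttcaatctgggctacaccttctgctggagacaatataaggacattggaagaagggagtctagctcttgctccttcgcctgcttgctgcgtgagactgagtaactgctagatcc
Solo LTR in an intron of Zfp936, on the strand opposite to the gene, chr7:42829386-42829685, minus strand: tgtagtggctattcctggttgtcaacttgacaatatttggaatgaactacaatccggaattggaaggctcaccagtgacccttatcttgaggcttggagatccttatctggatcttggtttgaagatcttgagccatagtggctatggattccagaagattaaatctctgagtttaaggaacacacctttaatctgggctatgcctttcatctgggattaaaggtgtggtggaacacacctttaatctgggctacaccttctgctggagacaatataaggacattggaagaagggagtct

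The motif stood at bases 158 to 166 of each of the 4 provirus LTRs shown. In both solo LTRs the same 9 bases read GATTAAATC, a substitution G162A with positions counted from 1 at the 5′ end of the copy. Over these 300 bases the LTR of the *Tubgcp2* provirus was 96.7% identical to the LTR of the chromosome X provirus, 97% to that of the chromosome 1 provirus and 81.5% to the shortened *Mpv17l* LTR, and it was 96.7% identical to the solo LTR near *Zfp936*. GATTCAATC was present in 88.5% of the 2401 MT2_Mm copies that were long enough to hold this window. The share was 97.1% of 416 upstream LTRs of complete proviruses, 98.1% of 414 downstream LTRs and 83.6% of 1344 solo LTRs, against 0.149% of 32851 mouse promoters of similar length (RefSeq, GRCm38.p6). The substituted GATTAAATC was held by 10.9% of solo LTRs and 1.2% of upstream LTRs. The polyadenylation signal AATAAA was present in 98.6% of 1860 whole MT2_Mm copies of full length and, in windows of 300 bases, in 1.08% of MT2_Mm copies and 19.6% of promoters, and TATAAA in 0.25% of MT2_Mm copies and 13.6% of promoters.

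Same-strand fragments within 500 bp of each other were joined into loci. This gave 420 complete proviruses (at least 4000 bp of MERVL-int between LTRs at both ends, median length 6436 bp), 834 partial loci with some MERVL-int, and 1514 solo LTRs (median 492 bp). Of the complete proviruses 415 had a uniquely mapped read in some library, as had 546 partial loci and 1058 solo LTRs. The LTRs of 253 of the 420 complete proviruses were identical to each other, and 346 pairs were over 99% identical, so a read within an LTR often had no unique position. A gene overlapped 39.8% of the complete proviruses.

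MERVL-int rose sharply when WT cells left the naive state. In the 8 WT mES libraries, in order of replicate number, it stood at 50.5, 53.3, 51.9, 45.4, 70.2, 71.4, 101 and 68.5 CPM of multimapped reads. In the 8 WT EpiLC libraries it stood at 194, 214, 200, 230, 137, 137, 177 and 189 CPM. The stages did not overlap, and the step was wider in replicates 1 to 4 (50.3 ± 3.44 to 209 ± 15.9 CPM, SD, n = 4) than in replicates 5 to 8 (77.7 ± 15.4 to 160 ± 27.1 CPM, n = 4). Over all 16 libraries the log2 fold change was 1.53 ± 0.13 (SE; edgeR, adjusted p = 4.05e-13), the seventh highest of 1142 TE families tested, of which 2.36% were called higher (adjusted p under 0.05 and a change over 2-fold) and 2.19% lower. With replicates 5 to 8 alone it was 0.96 (edgeR, adjusted p = 5.51e-06), just short of 2-fold.

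The LTR moved with its internal part in the multimapped reads but by less. MT2_Mm went from 48.6 ± 6.95 CPM (SD, n = 8) in WT mES cells to 86.0 ± 15.4 in WT EpiLCs, a log2 fold change of 0.82 ± 0.10 (edgeR, adjusted p = 8.24e-10) that did not reach 2-fold. The lowest WT EpiLC library (63.2 CPM) lay just above the highest WT mES library (61.5). In uniquely mapped reads MT2_Mm differed little between the stages, at a log2 difference of 0.14 (exact permutation test over libraries, adjusted p = 0.225). Uniquely mapped reads made up 58% of the multimapped MT2_Mm count in WT mES cells and 35.9% in WT EpiLCs, while for MERVL-int the shares were 44.1% and 40.8%. Without the 5 MT2_Mm copies of highest mean the unique difference was 0.64 (exact permutation test, adjusted p = 0.00839), so a handful of copies set the unique value.

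**Figure D1:**
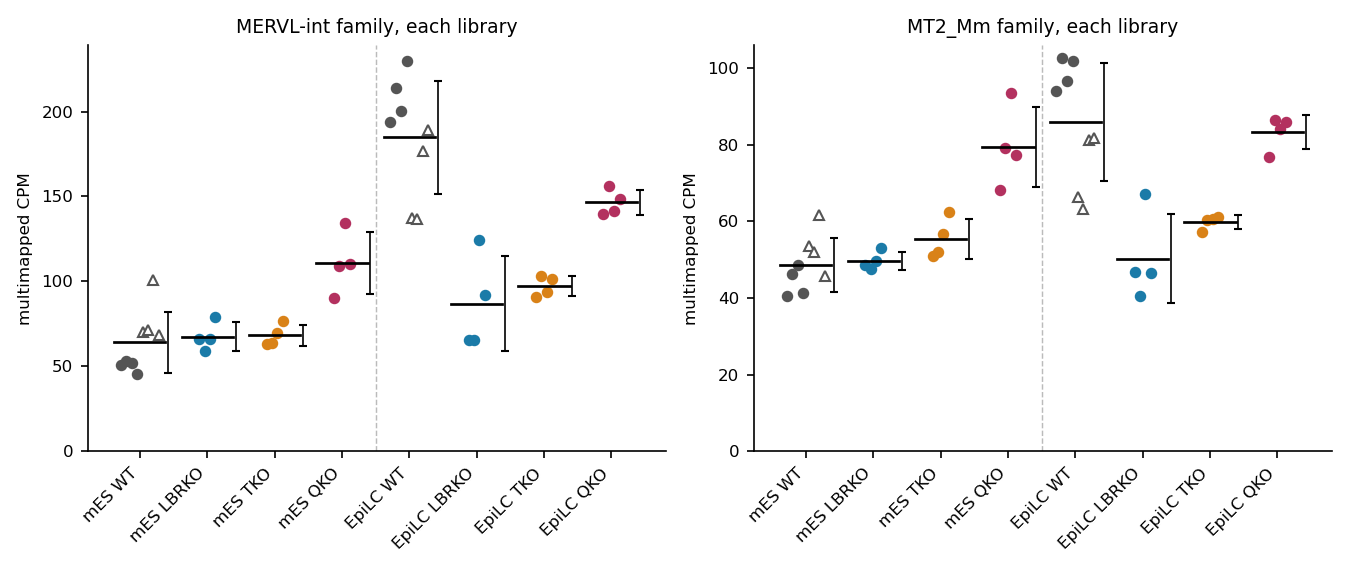
Expression of MERVL-int and MT2_Mm (CPM, multimapped reads) in each of the 40 libraries. Circles are libraries, open triangles are WT replicates 5 to 8, the bar is the group mean and the error bar the SD. WT EpiLCs lie above all WT mES libraries, and the LBRKO and TKO EpiLC libraries lie below the WT EpiLC libraries for MERVL-int.

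LBRKO and TKO were lower than WT in EpiLCs. MERVL-int stood at 65.4, 65.2, 124 and 92.1 CPM in the LBRKO EpiLC libraries, and at 91.0, 103, 93.7 and 101 CPM in the TKO EpiLC libraries. Every one of these libraries was below the lowest WT EpiLC library (137 CPM). The log2 fold change against WT was -1.09 ± 0.17 in LBRKO (SE; edgeR, adjusted p = 2.83e-06) and -0.93 ± 0.17 in TKO (edgeR, adjusted p = 9.08e-05), and among the families tested 0.876% were called higher and 0.263% lower in LBRKO, 0.701% and 0.263% in TKO. MT2_Mm also fell, by 0.77 ± 0.12 on the log2 scale in LBRKO (edgeR, adjusted p = 3.42e-06) and by 0.52 ± 0.12 in TKO (edgeR, adjusted p = 0.00177). Only MERVL-int in LBRKO passed 2-fold. In the LBRKO set it was replicates 1 and 2, those with the higher *Lbr* RNA, that held the lower MERVL-int levels, and with replicates 3 and 4 alone the log2 fold change was -0.77 (edgeR, adjusted p = 0.00541). Against WT replicates 5 to 8 alone it was -0.85 in LBRKO (edgeR, adjusted p = 0.000164), and the MT2_Mm change in TKO was -0.28 and did not pass the test (edgeR, adjusted p = 0.0885). These are bulk RNA samples, in which fewer expressing cells and less RNA in each cell cannot be told apart.

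QKO EpiLCs held 140, 156, 141 and 149 CPM of MERVL-int, inside the range of WT EpiLCs. The log2 fold change was -0.33 ± 0.16 (edgeR, adjusted p = 0.0752), and for MT2_Mm it was -0.04 ± 0.12 (edgeR, adjusted p = 0.777), where 26% of all families were called higher and 0% lower. Compared with TKO, the line from which the QKO clone was made, QKO EpiLCs were higher by 0.59 ± 0.19 for MERVL-int (edgeR, adjusted p = 0.00857) and by 0.48 ± 0.13 for MT2_Mm (edgeR, adjusted p = 0.00364) on the log2 scale, with 21.8% of families called higher and 0.0876% lower. The median family rose by 0.84 in this comparison, more than either of the 2 families. Counted from the highest change, MERVL-int ranked 963 and MT2_Mm 1025 of 1142 families. All comparisons of mutants with WT at a stage share the 8 WT libraries, and QKO enters both sets.

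In mES cells neither single mutant passed the test. MERVL-int stood at 66.0, 58.8, 66.1 and 78.9 CPM in LBRKO and 62.8, 63.9, 69.4 and 76.7 CPM in TKO, all inside the WT range of 45.4 to 101, with log2 fold changes of 0.07 ± 0.16 (edgeR, adjusted p = 0.773) and 0.09 ± 0.16 (edgeR, adjusted p = 0.753). Of all families 0.525% were called higher and 0.0876% lower in LBRKO, and 2.1% and 0.0876% in TKO. The answer depends on the WT set: against replicates 1 to 4 alone MERVL-int was higher by 0.45 in LBRKO (edgeR, adjusted p = 0.0137) and in TKO (edgeR, adjusted p = 0.0221), and against replicates 5 to 8 alone the values were -0.21 and -0.19 (edgeR, adjusted p = 0.445 and 0.425). QKO mES cells were higher than WT, at 90.0, 109, 134 and 110 CPM of MERVL-int (0.79 ± 0.16 on the log2 scale; edgeR, adjusted p = 5.72e-05) and 68.2 to 93.5 CPM of MT2_Mm (0.71 ± 0.11; edgeR, adjusted p = 2.16e-06). Of all TE families 25.1% were called higher in QKO mES cells and 0% lower, and the median family rose by 0.82, so the 2 families stood close to the middle of TEs there. When copies were scaled to the TE table in place of the genes, the unique MERVL-int difference in QKO mES cells was 0.06 (exact permutation test, adjusted p = 0.785).

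The change from mES cells to EpiLCs was smaller in each mutant than in WT. The interaction of stage and genotype for MERVL-int was -1.16 ± 0.23 in LBRKO (SE; edgeR, adjusted p = 0.00022), -1.01 ± 0.23 in TKO (edgeR, adjusted p = 0.00222) and -1.12 ± 0.23 in QKO (edgeR, adjusted p = 0.000144) on the log2 scale. For MT2_Mm it was -0.80 ± 0.16, -0.71 ± 0.17 and -0.75 ± 0.16 (edgeR, adjusted p = 0.000416, 0.00322 and 0.000423). Few families were called for this interaction, with 0.263%, 1.23% and 1.49% of all families called lower and 0.438%, 0.0876% and 0.525% called higher. The MT2_Mm terms fell short of 2-fold and are not in these shares. Counted from the highest of 1142 families, MT2_Mm ranked 1126 in LBRKO, 1062 in TKO and 1084 in QKO. The median family term was -0.23 in TKO. The interaction terms rest on both WT sets. With WT replicates 5 to 8 alone the MERVL-int terms were -0.65, -0.53 and -0.60 (edgeR, adjusted p = 0.0589, 0.145 and 0.047), none of them past 2-fold.

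**Figure D2:**
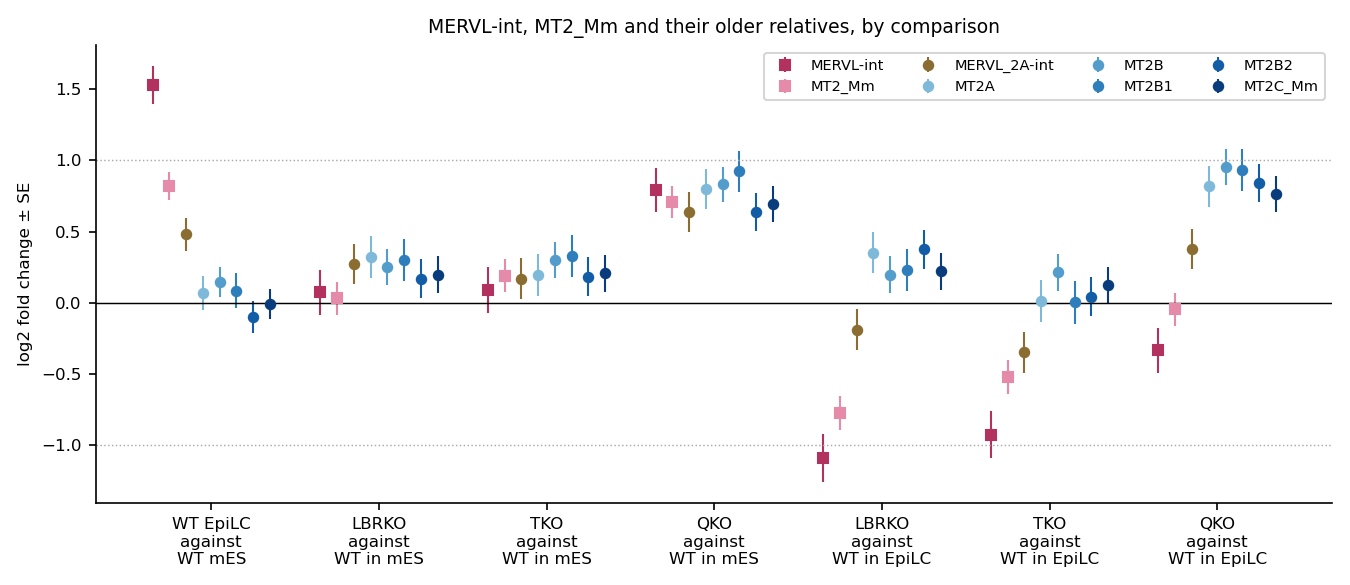
Log2 fold change (± SE) of MERVL-int, MT2_Mm and 6 related families in 7 comparisons, from multimapped reads. Dotted lines mark 2-fold. MERVL-int and MT2_Mm rise in WT EpiLCs and fall in LBRKO and TKO EpiLCs, MERVL_2A-int has smaller values of the same sign, and the older MT2 families lie between -0.10 and 0.37 in these comparisons and rise in QKO cells at both stages.

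Related families gave a reference inside each library. MT2A, MT2B, MT2B1, MT2B2 and MT2C_Mm are older LTR families of the same ERVL group. Between WT stages their log2 fold changes lay from -0.10 to 0.15, and in QKO they rose by 0.64 to 0.92 in mES cells and by 0.76 to 0.95 in EpiLCs. MERVL_2A-int, the internal part of a related element, moved in between, with 0.48 ± 0.12 between WT stages (edgeR, adjusted p = 0.000391), -0.19 ± 0.14 in LBRKO EpiLCs (edgeR, adjusted p = 0.364), -0.35 ± 0.14 in TKO EpiLCs (edgeR, adjusted p = 0.111) and 0.38 ± 0.14 in QKO EpiLCs (edgeR, adjusted p = 0.0203). In LBRKO and TKO EpiLCs the older MT2 families lay at 0.20 to 0.37 and at 0.005 to 0.21, where MERVL-int and MT2_Mm were below 0.

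The log2 ratio of MERVL-int to the summed older MT2 families, a measure added after the family values were seen, placed QKO EpiLCs with the other mutants. It lay from -2.66 to -2.12 in WT mES cells and from -1.32 to -0.49 in WT EpiLCs. In EpiLCs it was -2.19, -2.32, -2.29 and -2.18 in LBRKO, -1.85, -1.89, -1.94 and -1.92 in TKO, and -2.15, -2.06, -2.13 and -2.11 in QKO. No mutant EpiLC library reached the WT EpiLC range. The LBRKO values lay inside the range of WT mES cells, and the QKO values lay around its upper end, 2 inside and 2 above. The differences from WT EpiLCs were -1.35, -1.0 and -1.22 for LBRKO, TKO and QKO, each with the smallest p that 8 against 4 libraries allow (exact permutation test, p = 0.00404, adjusted p = 0.00909), and were -1.0, -0.60 and -0.93 for MT2_Mm (exact permutation test, adjusted p = 0.00909 for each). In mES cells the MERVL-int ratio of QKO differed from WT by -4e-04 (exact permutation test, p = 0.982). The ratio sets MERVL-int against families that rose in QKO, so a low ratio there reflects both parts. The mean of MERVL-int in QKO EpiLCs was 146.5 CPM against 184.8 in WT, a difference that did not pass the test.

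**Figure D3:**
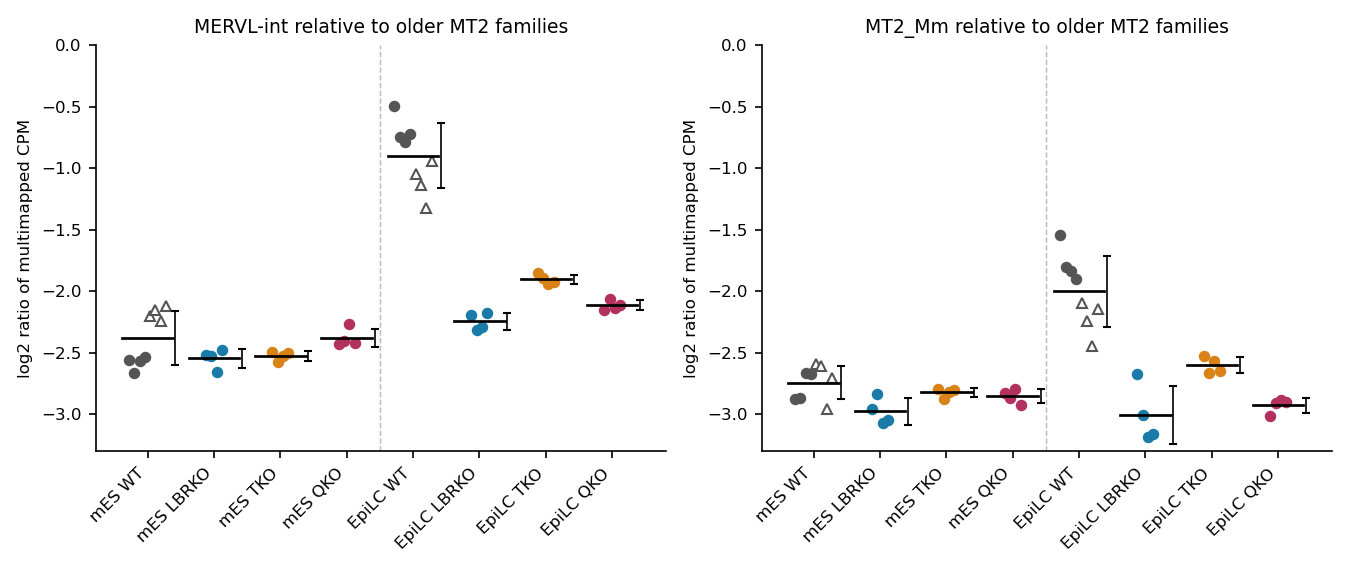
Log2 ratio of MERVL-int to the summed MT2A, MT2B, MT2B1, MT2B2 and MT2C_Mm families (multimapped reads) in each library by group. WT EpiLC libraries lie between -1.32 and -0.49, and the highest mutant EpiLC library is at -1.85.

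Uniquely mapped reads showed which kind of locus carried these changes. Complete proviruses held 20.9 ± 6.90 CPM in WT mES cells (SD, n = 8) and 69.2 ± 11.6 in WT EpiLCs, 3.42-fold more (exact permutation test, adjusted p = 0.0042). Partial loci rose by 0.76 on the log2 scale (exact permutation test, adjusted p = 0.00839). Solo LTRs held 27.3 and 26.3 CPM, a difference of -0.06 (exact permutation test, adjusted p = 0.581). The fold was thus larger in loci that still had both LTRs and an internal part, a difference between classes that was not itself tested. For solo LTRs a few strong copies decided the value: without the 5 copies of highest mean the difference was 0.46 (exact permutation test, adjusted p = 0.021), and over copies outside genes 0.72 (exact permutation test, adjusted p = 0.0042).

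In EpiLCs the mutants again differed most in complete proviruses. These held 19.8, 19.7, 41.2 and 32.3 CPM in LBRKO, 27.8, 35.1, 31.7 and 34.3 CPM in TKO and 48.1, 51.3, 49.7 and 48.2 CPM in QKO, against 52.7 to 84.2 CPM in WT. No mutant library reached the lowest WT library, and the log2 differences were -1.35, -1.09 and -0.47 (exact permutation test, adjusted p = 0.0136 for each). The classes went apart in QKO: complete proviruses were lower than in WT, partial loci differed by 0.22 (exact permutation test, adjusted p = 0.0606) and solo LTRs were higher by 0.33 (exact permutation test, adjusted p = 0.0136). Scaled to the TE table, solo LTRs of QKO EpiLCs were lower, by -0.47 (exact permutation test, adjusted p = 0.00992), so their direction follows the scale. Complete proviruses were lower on that scale too, but their difference was -0.31 on gene totals without TMM (exact permutation test, adjusted p = 0.0861) and -0.31 against WT replicates 5 to 8 alone (exact permutation test, adjusted p = 0.0593). In TKO EpiLCs partial loci fell by 0.43 (exact permutation test, adjusted p = 0.0136) and solo LTRs by 0.40 (exact permutation test, adjusted p = 0.0298), and in LBRKO EpiLCs partial loci and solo LTRs did not pass the test (-0.37 and -0.31; exact permutation test, adjusted p = 0.13 and 0.104).

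Complete proviruses outside genes have no annotated gene over them, and unannotated or readthrough transcripts were not tested. They held 5.20 to 15.1 CPM in WT mES cells and 29.6 to 49.1 CPM in WT EpiLCs, 4.28-fold more, and in EpiLCs 8.29, 8.25, 16.9 and 15.1 CPM in LBRKO, 14.3, 18.6, 16.3 and 17.0 in TKO and 23.3, 24.6, 26.6 and 22.9 in QKO. The differences from WT EpiLCs were -1.75, -1.23 and -0.67 on the log2 scale (exact permutation test, adjusted p = 0.0121 for each). Those in genes, where reads of the host transcript can also fall, rose 2.72-fold between WT stages and differed by -0.95, -0.92 and -0.25 in LBRKO, TKO and QKO EpiLCs (exact permutation test, adjusted p = 0.0182, 0.0121 and 0.0779). In QKO mES cells both groups were higher than in WT, by 0.78 and 0.84.

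**Figure D4:**
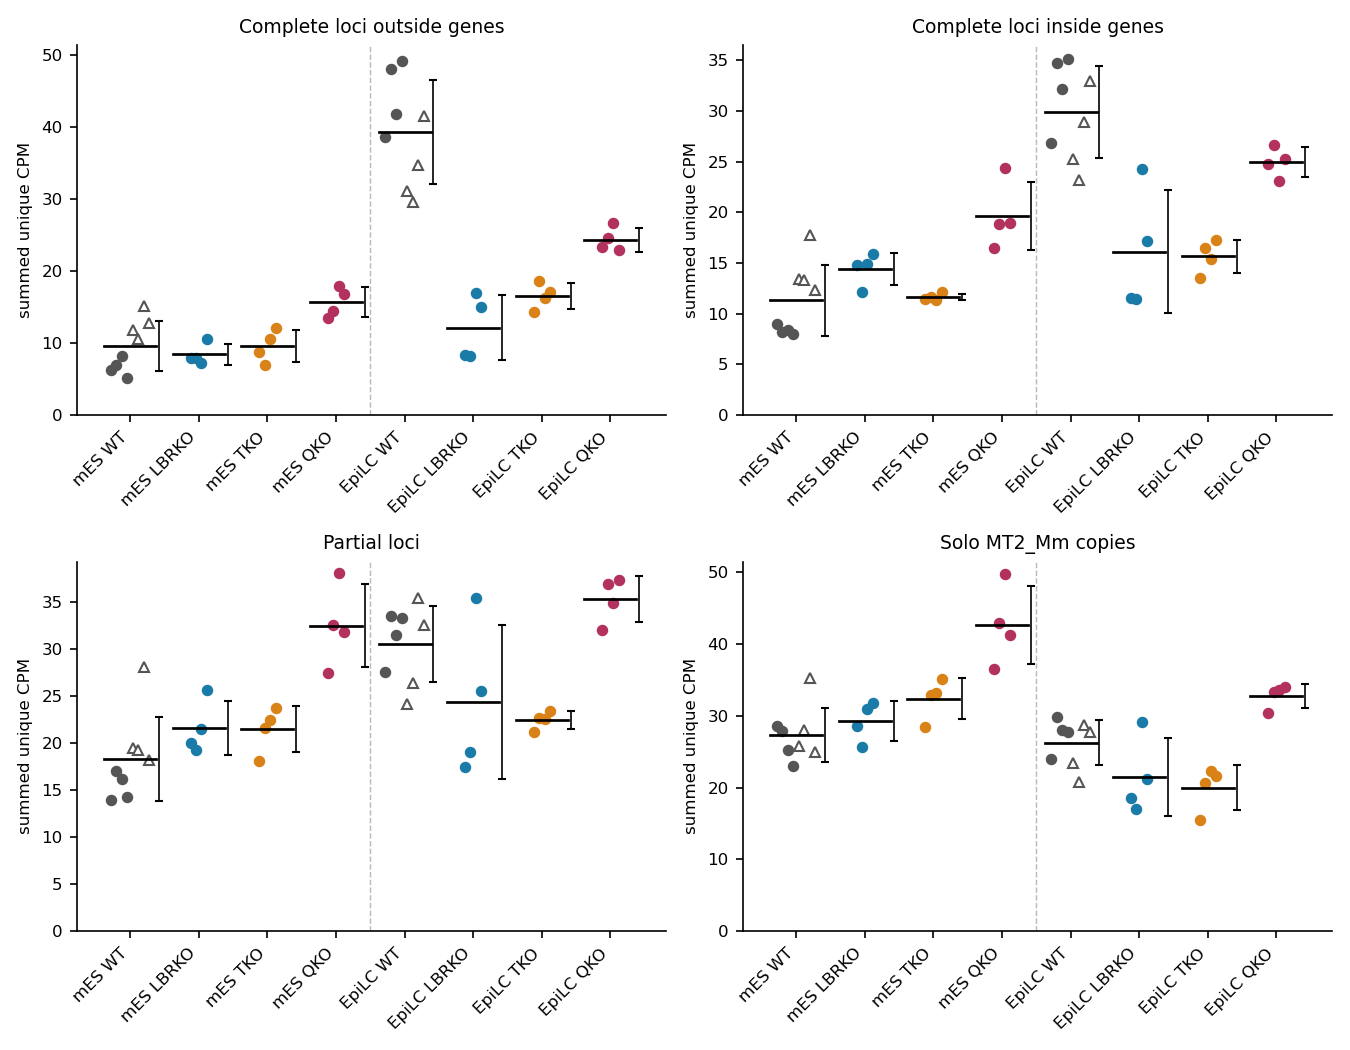
Summed uniquely mapped CPM of complete proviruses outside genes, complete proviruses in genes, partial loci and solo LTRs in each library by group. Complete proviruses outside genes rise 4.28-fold between WT mES cells and WT EpiLCs, and the mutant EpiLC libraries stay below the WT EpiLC range in that panel.

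The rise reached nearly all complete proviruses. Of 420, 402 had a higher mean in WT EpiLCs than in WT mES cells, 12 had a lower mean and 6 had no read. Among the 393 with at least 10 reads over the compared libraries, 338 were over 2-fold higher and 1 over 2-fold lower. In EpiLCs the means of 392 proviruses were lower in LBRKO than in WT, of 379 in TKO and of 333 in QKO. Over 2-fold lower were 294 of 386 with at least 10 reads in LBRKO, 253 of 384 in TKO and 188 of 388 in QKO, and over 2-fold higher were 0, 4 and 11. In mES cells the counts were nearly balanced in LBRKO (200 higher, 212 lower) and TKO (189 and 222), and in QKO 284 were higher and 126 lower. In WT mES cells 44 proviruses supplied 50% of the complete-provirus CPM, in WT EpiLCs 74, and in LBRKO, TKO and QKO EpiLCs 36, 55 and 37. The WT groups hold 8 libraries and the mutants 4, and loci with few reads are seen more fully in the larger group. Without a filter on reads, solo LTRs in EpiLCs had 600 lower and 270 higher means in LBRKO, 622 and 225 in TKO and 546 and 319 in QKO. Among solo LTRs with at least 10 reads, 81 of 232 were over 2-fold lower and 31 over 2-fold higher in LBRKO. In TKO these were 69 and 22 of 203. In QKO the 2 directions were nearly equal, at 61 lower and 62 higher of 231. Partial loci, again without a filter, had 304 lower and 172 higher means in LBRKO, 330 and 130 in TKO and 268 and 211 in QKO. With at least 10 reads, 78 of 225 partial loci were over 2-fold lower and 14 over 2-fold higher in LBRKO. In TKO these were 74 and 10 of 206, and in QKO 53 and 43 of 227. A locus high in WT EpiLCs can also reach 10 reads through that group.

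Of the members, 101 MERVL-int and 48 MT2_Mm copies had enough reads to be tested singly. They held 48.6% and 52.2% of the unique reads of their families, and copies high in a single group can pass this filter through that group. Between WT stages 58 MERVL-int copies were called higher and 2 lower, and 4 MT2_Mm copies higher and 7 lower, while 11% of the 131824 single TE copies tested were called higher and 10% lower. In LBRKO EpiLCs 1 copy was higher and 27 lower (1.21% and 0.287% of all copies), in TKO EpiLCs 2 and 6 (2.07% and 0.557%) and in QKO EpiLCs 19 and 25 (29.3% and 1.4%). In mES cells LBRKO had 0 calls among the members by edgeR, with 8 above and 7 below WT where p was under 0.05 before adjustment, 0 higher and 1 lower with DESeq2, and 4 higher and 3 lower by edgeR against WT replicates 1 to 4 alone (0.409% and 0.457% of all copies were called). In mES cells TKO had 5 higher and 1 lower (3.48% and 0.689% of all copies) and QKO 22 and 3 (24.2% and 1.36%). In EpiLCs QKO against TKO gave 15 higher and 0 lower by edgeR (12.6% and 0.551% of all copies), 33 and 2 where p was under 0.05 before adjustment, and 22 and 1 by DESeq2. In mES cells it gave 2 and 0 by edgeR and by DESeq2 (1.29% and 0.124%), and 28 and 0 before adjustment. The interaction of stage and genotype was called higher and lower by edgeR at 1 and 0 copies in LBRKO (0.348% and 0.0819% of all copies), at 0 and 0 in TKO (0.0288% and 0.152%) and at 3 and 5 in QKO (1.42% and 0.589%), and before adjustment p was under 0.05 at 4 and 26, 0 and 14, and 5 and 23. Of the tested copies 65 lay in complete proviruses, 44 in partial loci and 40 were solo LTRs. In EpiLCs most lower calls fell on complete proviruses, 22 of 27 in LBRKO, 5 of 6 in TKO and 21 of 25 in QKO. The higher calls in QKO EpiLCs were spread over 5 copies in complete proviruses, 7 in partial loci and 7 solo LTRs.

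A MERVL-int fragment of a partial locus outside genes, chr5:62930524-62932379, rose between WT stages and had a lower mean in all mutant EpiLCs. Most complete proviruses took this course, but tested copies of partial loci did not. Their median log2 fold changes against WT EpiLCs were 0.10 in LBRKO, -0.12 in TKO and 0.55 in QKO. The chr5 fragment held 0.0492 CPM in WT mES cells and 1.09 ± 0.394 in WT EpiLCs (log2 fold change 4.32 ± 0.46; edgeR, adjusted p = 1.04e-12), 0.0808 ± 0.0817 in LBRKO EpiLCs, 0.405 ± 0.132 in TKO and 0.135 ± 0.0233 in QKO. The internal part of a complete provirus at chr8:57197302-57202651 followed the same course, from 0.103 to 1.03 CPM between WT stages and to 0.161, 0.391 and 0.206 CPM in LBRKO, TKO and QKO EpiLCs. The difference from WT EpiLCs was -2.64 ± 0.51 in LBRKO (edgeR, adjusted p = 0.000425) and -2.27 ± 0.51 in QKO (edgeR, adjusted p = 0.000328). These copies were at most slightly transcribed in every mES group, with all 4 QKO mES libraries at 0 for the first.

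The mutants ranked differently by their mean levels at single copies. The internal part of a provirus over an exon of *Mplkipl1* (chr19:61157834-61163188) held 0.535 ± 0.119 CPM in WT EpiLCs and 0.502 in LBRKO EpiLCs, but 0.0888 ± 0.111 in TKO and 0.0804 ± 0.0324 in QKO (-2.51 ± 0.57 and -2.69 ± 0.56; edgeR, adjusted p = 0.00218 and 0.000126). It was low in the mES cells of both lamin-free lines too, at 0.0256 and 0.0639 CPM against 0.228 in WT. A provirus part on the X chromosome (chrX:55116472-55120358) was lowest in LBRKO EpiLCs, at 0.0739 CPM against 0.524 in WT (-2.71 ± 0.63; edgeR, adjusted p = 0.00591), with 0.209 in TKO and 0.120 in QKO. In an intron of *Snapc3*, a provirus part (chr4:83361536-83366856) was higher in QKO EpiLCs, at 0.698 ± 0.280 CPM against 0.0658 in WT (3.46 ± 0.59; edgeR, adjusted p = 2.97e-06). An MT2_Mm copy in an intron of *Nf2* (chr11:4725422-4725789) had reads in 1 of 8 WT libraries at each stage, and held 0.236 and 0.265 CPM in TKO and QKO mES cells and 0.150 and 0.222 in their EpiLCs. Differences between mutants at these copies were not tested apart from QKO against TKO.

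The chromosome X provirus shown above, chrX:13183849-13190279, took another course. It held 0 to 0.217 CPM in WT mES cells and 0.764 to 1.13 CPM in WT EpiLCs, and LBRKO (0.500 to 1.51 CPM) and TKO EpiLCs (0.486 to 1.53 CPM) overlapped WT. QKO EpiLCs held 3.02, 3.13, 3.77 and 3.39 CPM, above every other library, while QKO mES cells held 0.0383 to 0.228 CPM. For its internal part the log2 fold change in QKO EpiLCs was 1.80 ± 0.28 against WT (edgeR, adjusted p = 2.78e-07) and 1.66 ± 0.35 against TKO (edgeR, adjusted p = 4e-04). So this provirus rose between the stages in all genotypes and stood highest in QKO.

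Several of the most strongly expressed proviruses lay in genes and changed little between the stages. The *Tubgcp2* provirus on chromosome 7 (chr7:139601251-139607648) had the highest mean of all, with 1.55 ± 0.483 CPM in WT mES cells (SD, n = 8) and 1.77 ± 0.459 in WT EpiLCs, and it reached 3.58 ± 0.144 CPM in QKO EpiLCs (n = 4). *Tubgcp2* encodes a subunit of the complex that nucleates microtubules, and the provirus lies in its intron on the same strand. Its internal part was higher in QKO EpiLCs than in WT by 1.02 ± 0.21 (edgeR, adjusted p = 0.000128). The provirus at *Csnk2a1*, the gene of a casein kinase subunit (chr2:152105282-152111718), went from 0.856 to 1.16 CPM between WT stages and stood at 2.09 ± 0.179 in QKO EpiLCs. The one at *Mpv17l* (chr16:13726217-13732635), with the shortened LTR, held 0.640 ± 0.362 and 0.792 ± 0.155 CPM in the WT stages and 1.33 CPM in QKO at both. Reads of unspliced host transcript cannot be told apart from reads of the provirus at such loci.

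A single complete provirus with at least 10 reads was over 2-fold lower in WT EpiLCs, and the provirus at chr1:36070558-36076994, outside genes, also ran against the rest. It held 0.304 to 0.717 CPM in WT mES cells and 0.130 to 0.558 in WT EpiLCs. In mES cells it stood at 0.0852, 0.184, 0.0849 and 0.300 CPM in LBRKO and at 0.780, 0.690, 1.38 and 1.17 CPM in QKO, so all LBRKO libraries lay below the lowest WT library and 3 of 4 QKO libraries above the highest. Its LTR pair was 99.8% identical and its upstream LTR held the motif, as did those of the proviruses that rose.

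**Figure D5:**
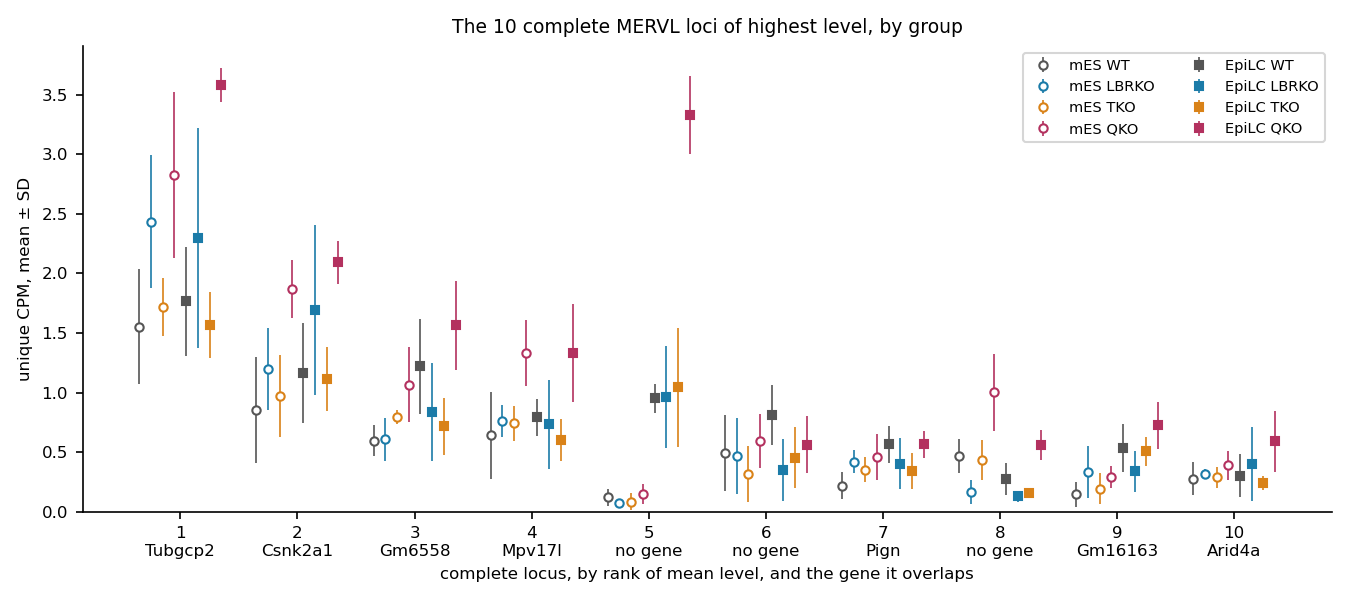
Uniquely mapped CPM (mean ± SD) of the 10 complete proviruses with the highest mean over the 8 groups. The chromosome X provirus reaches 3.33 CPM in QKO EpiLCs against 0.953 in WT EpiLCs, and the chromosome 1 provirus outside genes is higher in WT mES cells than in WT EpiLCs.

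Among solo LTRs the strongest change between stages was a loss. The solo LTR at chr9:108530694-108531127, over an exon of the annotated microRNA gene *Gm55624*, held 4.81 to 9.84 CPM in WT mES cells and 0 to 0.110 CPM in WT EpiLCs (log2 fold change -7.60 ± 0.27; edgeR, adjusted p = 2.23e-40). It kept 5.39, 10.02 and 9.98 CPM in LBRKO, TKO and QKO mES cells. LBRKO EpiLCs retained 0.246 ± 0.0817 CPM (2.74 ± 0.42 against WT; edgeR, adjusted p = 4.07e-06) and QKO EpiLCs 0.211 ± 0.112. A solo LTR outside genes at chr5:76246724-76247222 had reads in all 8 WT mES libraries (0.112 to 0.595 CPM) and in none of the 8 WT EpiLC libraries, and rose to 1.43 ± 0.390 CPM in QKO mES cells (2.10 ± 0.38; edgeR, adjusted p = 1.12e-05). In the opposite stage, the solo LTR in *Zfp936*, a zinc finger gene, held 0.384 ± 0.202 CPM in WT EpiLCs and 2.51 ± 0.317 in QKO EpiLCs (2.68 ± 0.32; edgeR, adjusted p = 9.18e-11). A partial locus in an intron of *Gm7240* (chr13:62000001-62002225) was called higher in both lamin-free lines in mES cells, at 0.449 CPM in TKO and 1.08 in QKO against 0.0409 in WT (3.43 ± 0.54 and 4.70 ± 0.51; edgeR, adjusted p = 1.53e-06 and 3.27e-12). A solo LTR at chr10:54572797-54573289 was higher in TKO mES cells (0.502 against 0.0830 CPM; edgeR, adjusted p = 0.000845) and in QKO EpiLCs (0.791 against 0.0531 CPM; edgeR, adjusted p = 2.77e-08).

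Solo LTRs with and without the motif were compared because both solo LTRs printed above carry the substitution, a choice made after that was seen. The 1109 solo LTRs with the motif in the orientation shown above summed to 14.7 CPM in WT mES cells and 20.6 in WT EpiLCs, a log2 difference of 0.52 (exact permutation test, adjusted p = 0.02). The 147 with GATTAAATC went from 8.95 to 2.07 CPM, a difference of -2.10 (exact permutation test, adjusted p = 0.00308), of which the *Gm55624* LTR alone held 7.18 and 0.0298 CPM. The difference between solo LTRs with and without the motif was 1.90 (exact permutation test, adjusted p = 0.00308). It was 0.23 without the 5 copies of highest mean of each kind (exact permutation test, adjusted p = 0.0958), so the contrast rested on a few copies. In complete proviruses, those with identical LTRs rose between WT stages by 1.90 and those with unlike LTRs by 1.66, a difference of 0.24 (exact permutation test, adjusted p = 0.011), while in LBRKO EpiLCs both fell by 1.35 on the log2 scale.

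Most tested genes of the 2-cell stage rose between WT stages and were called lower in the mutants, with fewer calls in mES cells than in EpiLCs for LBRKO and QKO. Of 33 listed 2-cell-like genes 27 were found by name and 19 were tested. Many of them are near-identical paralogs, and the gene counts hold uniquely mapped reads only, so reads that fit several paralogs were left out. Between WT stages 18 of the 19 were called higher and 0 lower (18.2% and 12.9% of all genes), among them *Zfp352* with a log2 fold change of 4.16 ± 0.51 (edgeR, adjusted p = 3.18e-09). In EpiLCs 18 were called lower in LBRKO, 13 in TKO and 17 in QKO (2.63%, 1.48% and 8.16% of all genes). *Ddit4l*, which encodes an inhibitor of mTOR signalling, was an exception, with log2 fold changes of 0.21 ± 0.10 in LBRKO and 0.81 ± 0.10 in QKO EpiLCs (edgeR, adjusted p = 0.122 and 3.28e-09). In mES cells, where MERVL-int of LBRKO and TKO did not differ from WT by the test and that of QKO was higher, 12, 13 and 10 were called lower (3.25%, 3.77% and 6.66% of all genes), numbers that were 5, 5 and 2 (in either direction) against WT replicates 1 to 4 alone.

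The summed *Zscan4a* to *Zscan4f* genes, which mark 2-cell-like cells, followed the same course. They held 0.253 to 2.36 CPM in WT mES cells (0.336 on average in replicates 1 to 4 and 1.75 in replicates 5 to 8) and 11.6 to 17.8 CPM in WT EpiLCs. LBRKO, TKO and QKO EpiLCs held 0.953, 3.38 and 2.17 CPM on average, with no library above 3.72. The mutant mES groups held 0.0347, 0.00826 and 0.0710 CPM, and no library of them exceeded 0.118. QKO mES cells, the mES group with the highest mean of MERVL-int, held almost no *Zscan4* RNA.

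Of 7 listed activators of MERVL, 6 were found and 5 tested. *Duxf3*, a *Dux* gene, was at the limit of detection in uniquely mapped reads, with 0.00634 CPM in WT mES cells and 0.122 in WT EpiLCs, and was not tested. Reads that also fit elsewhere in the genome are left out of this value. *Dppa2* and *Dppa4*, which encode a pair of proteins that act upstream of *Dux*, rose between WT stages from 29.3 to 111 CPM and from 38.5 to 96.9 CPM (1.92 ± 0.13 and 1.33 ± 0.08; edgeR, adjusted p = 3.36e-17 and 4.97e-18), and no mutant passed the test and 2-fold for either. *Nr5a2*, which encodes a nuclear receptor of early embryos, fell from 148 to 3.28 CPM (-5.46 ± 0.11; edgeR, adjusted p = 2.02e-35) and was higher in LBRKO EpiLCs by 1.54 ± 0.12 (edgeR, adjusted p = 1.96e-13). *Gata2*, which encodes a transcription factor, was higher by 1.20 ± 0.23 in QKO mES cells and by 1.04 ± 0.22 in LBRKO EpiLCs (edgeR, adjusted p = 4.71e-05 and 0.000385). Of 27 listed repressors no more than 1 (3.7%) was called in each direction in any comparison, where 18.2% and 12.9% of all genes were called higher and lower between WT stages and 13% and 8.16% in QKO EpiLCs: *Zfp42* (REX1) was higher in QKO at both stages and in LBRKO EpiLCs, and *Suv39h1*, which encodes an H3K9 methyltransferase, rose between WT stages by 1.38 ± 0.06 (edgeR, adjusted p = 1.23e-23).

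Markers of cell state also moved with some of these results. In LBRKO EpiLCs, which had the lowest MERVL-int of the EpiLC groups, 2 of 6 naive markers were called higher, *Esrrb* at 79.8 CPM against 16 in WT and *Zfp42* at 65.3 against 22.6, and the 6 genes summed to 195 to 295 CPM per library against 104 to 173 in WT EpiLCs. None of the 6 was at 0, and the 4 EpiLC markers summed to 2523 to 2859 CPM against 3150 to 3840. Of these 0 of 4 were called by edgeR, and 3 were lower at an unadjusted p under 0.05. The 3 were *Fgf5*, *Dnmt3b* and *Otx2*, which also passed after adjustment (edgeR, adjusted p = 1.08e-09, 0.00291 and 0.0122) but fell short of 2-fold. In TKO EpiLCs 0 of 6 naive markers were called by edgeR, with 2 lower at an unadjusted p under 0.05, and the sum was 132 to 159.5 CPM, inside the WT range, while MERVL-int was lower there too. QKO EpiLCs had 2 naive markers called higher and 1 lower (*Nanog*), with a sum of 143 to 169 CPM. Their 4 EpiLC markers summed to 2205 to 2318 CPM, below LBRKO, with 0 of 4 called by edgeR. At an unadjusted p under 0.05, 1 was higher (*Fgf5*) and 1 lower (*Dnmt3b*, 1693 against 3023 CPM). Both also passed after adjustment (edgeR, adjusted p = 0.00086 and 1.05e-08) but fell short of 2-fold. *Pou5f1*, expressed at both stages, differed by -0.77 ± 0.10 in QKO EpiLCs (edgeR, adjusted p = 2.91e-08). In TKO EpiLCs the EpiLC markers summed to 3068 to 3321 CPM. In mES cells 2 of the 4 were called lower in LBRKO (*Otx2* at 0.561 against 9.13 CPM, and *Fgf5* at 0 in all 4 libraries), 1 in TKO (*Fgf5*) and 2 in QKO (*Fgf5* and *Pou3f1*). QKO EpiLCs also held more RNA of 2 of 3 primitive endoderm markers, *Gata6* at 2.90 CPM against 0.372 and *Pdgfra* at 2.32 against 0.395. The 3 genes summed to 4.18 to 7.27 CPM there against 0.905 to 1.56 in WT EpiLCs. In mES cells the trophectoderm markers *Cdx2* and *Elf5* summed to 2.53 to 3.86 CPM in LBRKO, 0.219 to 0.501 in TKO and 0.942 to 1.78 in QKO against 0.179 to 3.10 in WT, with *Cdx2* called higher in LBRKO and lower in TKO. The part of these markers in the MERVL-int results was not tested.

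Genes whose annotated start lies inside an MT2_Mm copy on the same strand numbered 149, of which 62 were long non-coding RNAs, 50 microRNA models and 28 protein coding, and 28 were tested. The start was taken from the most upstream annotated exon, and the counts cover all exons of a gene. Use of the MT2_Mm start, against other starts of the same gene, was therefore not tested. Between WT stages 7 were called higher and 4 lower, 25% and 14.3% of those tested, near the 18.2% and 12.9% of all genes. *Tcstv2b*, a gene of the 2-cell stage, rose from 0.129 ± 0.117 to 2.76 ± 0.847 CPM (4.28 ± 0.36; edgeR, adjusted p = 6.45e-13) and *Alyreffm10* from 0.0606 to 1.04 CPM (4.01 ± 0.49; edgeR, adjusted p = 4.85e-09). Both were called lower in all 3 mutants in EpiLCs, with *Tcstv2b* at 0.147, 0.449 and 0.113 CPM in LBRKO, TKO and QKO. *Pglyrp1*, which encodes a peptidoglycan recognition protein, ran the other way, from 19.8 ± 8.33 to 0.551 ± 0.125 CPM (-5.18 ± 0.21; edgeR, adjusted p = 1.18e-24).

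*Cdca7l*, a gene of the MYC network, rose from 15.2 to 48.2 CPM between WT stages and was lower in TKO and QKO mES cells, at 6.37 ± 0.395 and 4.47 ± 0.530 CPM (-1.25 ± 0.08 and -1.76 ± 0.09; edgeR, adjusted p = 1.16e-15 and 2.07e-20). *Gm12790* separated the mutants in mES cells: it held 0.446 ± 0.162 CPM in WT, 0.0435 ± 0.0455 in LBRKO, 3.05 ± 0.265 in TKO and 6.48 ± 0.563 in QKO, with no overlap between WT and any of them (log2 fold changes of -3.19 ± 0.60, 2.79 ± 0.36 and 3.87 ± 0.36; edgeR, adjusted p = 6.53e-05, 7.45e-08 and 4.65e-12). In EpiLCs the genes called were 2 higher and 3 lower in LBRKO (3.04% and 2.63% of all genes), 0 and 3 in TKO (1.44% and 1.48%, with 0 higher also at an unadjusted p under 0.05 in edgeR) and 2 and 4 in QKO (13% and 8.16%).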

How the data were processed

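The cultures were sequenced as stranded, paired-end, rRNA-depleted total RNA libraries. According to the study's methods, the authors used cutadapt 2.5 to trim the reads and STAR 2.7.10a to map them to GRCm39 with GENCODE M30 genes and a TE annotation, and deposited whole-number counts: uniquely mapped reads per gene and per TE copy from featureCounts 1.6.4, and counts of genes and TE families from TEcount, which divides reads with up to 100 alignments among their positions. The strand setting of the counting is not given in the sources used here.

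The counts were fitted with edgeR 4.0.16 (quasi-likelihood test, TMM normalization, filterByExpr) in one model of 8 groups and 40 libraries, over 26508 rows of the multimapped table, 23399 genes and 131824 single copies. Copies took library sizes and TMM factors from the gene table. A call needed a Benjamini-Hochberg adjusted p under 0.05 and a change over 2-fold. Summed levels per library were compared as log2(CPM + 0.01) by two-sided exact permutation tests, adjusted within each family of tests, and ratios between families without a pseudocount. With 8 against 4 libraries the smallest p is 0.00404, with 4 against 4 it is 0.0286 and with 8 against 8 it is 0.000155. Library sizes are given in the opening of the report, and precision for single copies is limited by few reads.

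Members, gene lists and tests were chosen with earlier results of these data known. Copies named in the text came from the 5 of highest mean in each direction of each comparison, among those called whose libraries did not overlap between the groups, and loci were the 10 complete ones with the highest mean. DESeq2 1.42.0, other scalings, filters and sets of libraries served as alternatives, and the fit was tested on simulated data. LTR sequences were read from GRCm39 at the coordinates of the count table, and gene symbols came from GENCODE M39 (56017 of 56748 genes). Listed 2-cell-like genes that were not found by symbol were not analysed here.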

Additional observations from a re-analysis of the deposited data

Results flagged for a closer look

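In 232 groups of 4 or 8 libraries, 15 values lay far from the rest of their group, where chance gives about 5% of groups. WT mES replicate 7 supplied 9 of them, all high, but several of its measures share reads and are not separate results. It held 100.8 CPM of MERVL-int (the other 7 WT mES libraries 45.43 to 71.41), 134.8 CPM of MERVL_2A-int (68.11 to 98.26), 111.3 of MT2A (59.18 to 73.24), 126.7 of MT2B (76.58 to 94.79), 132.1 of MT2B1 (66.26 to 87.34) and 44.69 of MT2C_Mm (24.62 to 33.01). Its partial loci held 28.11 unique CPM (13.93 to 19.47), its solo LTRs 35.34 (23 to 28.59), and the summed older MT2 families 476.7 multimapped CPM (262.7 to 337.6). Without this library the log2 fold change of MERVL-int between WT stages was 1.65 and that of MT2_Mm 0.88 (edgeR, adjusted p = 6.81e-15 and 1.71e-10).

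Of the mutant libraries, QKO mES replicate 3 had a log2 ratio of MERVL-int to the older MT2 families of -2.269 (others -2.426 to -2.405). The summed *Zscan4a* to *Zscan4f* genes stood at 0 CPM in LBRKO mES replicate 3 (others 0.0426 to 0.05006) and at 0.03303 CPM in TKO mES replicate 1 (others 0). The provirus in *Pign* held 0.3929 CPM in QKO EpiLC replicate 3 (others 0.6076 to 0.6444), the provirus in *Fsaf1* 0.432 CPM in QKO EpiLC replicate 1 (others 0.8125 to 0.8314) and the provirus in *Arid4a* 0.8569 CPM in LBRKO EpiLC replicate 3 (others 0.1817 to 0.2809).

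The effect of genotype differed between mES cells and EpiLCs by the interaction term in all 3 mutants. For MERVL-int the term was -1.163 in LBRKO, -1.0147 in TKO and -1.1249 in QKO, and for MT2_Mm -0.8028, -0.7106 and -0.7515 (log2 scale, all 6 with an edgeR adjusted p under 0.05 and those of MT2_Mm short of 2-fold).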

How the results depend on the processing

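The higher level of MERVL-int in WT EpiLCs than in WT mES cells, and its lower level in LBRKO and TKO EpiLCs than in WT EpiLCs, kept their direction under every alternative run. The sets of LBRKO libraries, and all alternatives for locus classes, ratios, breadth and 2-cell-like genes, were added after the data were seen. A family call needs a change of more than 2-fold, so a value just under 1 loses it. With 4 against 4 libraries no permutation p falls below 0.0286, and most single copies hold few reads. For locus classes, MT2_Mm ratios and breadth, 786 of 962 values under an alternative kept direction and threshold, 119 fell short of the threshold, 22 came to pass it, 8 counts moved by over 1.5 times and 27 values changed sign. With the family sums of uniquely mapped counts in the fit, the MERVL-int family change was -0.95 in LBRKO EpiLCs and -0.97 for stage by TKO, and the MT2_Mm family change was 0.14 for WT stages and 0.23 in QKO EpiLCs. With DESeq2 size factors, the number of 2-cell-like genes called was 1 for QKO against TKO mES cells. By the DESeq2 Wald test, the number of 2-cell-like genes called was 1 for QKO against TKO mES cells, and the number of copies called lower was 1 in LBRKO mES cells, 2 in TKO mES cells, 16 in TKO EpiLCs and 1 for QKO against TKO EpiLCs. Scaled by TMM on the copy table, the number of copies called higher was 3 in TKO mES cells, 7 in QKO mES cells, 7 in QKO EpiLCs, 0 for QKO against TKO mES cells and 4 for QKO against TKO EpiLCs, and the number of copies called lower was 2 in LBRKO mES cells, 3 in TKO mES cells, 6 in QKO mES cells, 19 in TKO EpiLCs, 51 in QKO EpiLCs and 2 for QKO against TKO EpiLCs. Here the unique MERVL-int difference was -0.075 in LBRKO mES cells, -0.14 in TKO mES cells, 0.059 in QKO mES cells, -1.05 in QKO EpiLCs, 0.20 for QKO against TKO mES cells and -0.037 for QKO against TKO EpiLCs, and the unique MT2_Mm difference was -0.026 for WT stages, -0.14 in LBRKO mES cells, -0.039 in QKO mES cells, -0.55 in LBRKO EpiLCs, -0.56 in QKO EpiLCs, -0.044 for QKO against TKO mES cells and 0.017 for QKO against TKO EpiLCs. Also, the difference of complete proviruses was -0.093 in LBRKO mES cells, -0.18 in TKO mES cells, 0.071 in QKO mES cells, 0.26 for QKO against TKO mES cells and -0.055 for QKO against TKO EpiLCs, and the difference of partial loci was -0.016 in LBRKO mES cells, -0.010 in TKO mES cells, -0.58 in QKO EpiLCs and -0.024 for QKO against TKO EpiLCs. In that case, the difference of solo LTRs was -0.17 in LBRKO mES cells, -0.014 in TKO mES cells, -0.097 in QKO mES cells, -0.47 in QKO EpiLCs and -0.083 for QKO against TKO mES cells, and the difference of complete proviruses in genes was -0.17 in TKO mES cells and -1e-04 for QKO against TKO EpiLCs. There the difference of complete proviruses outside genes was -0.21 in TKO mES cells and -0.11 for QKO against TKO EpiLCs. With every copy of at least 10 counts tested, the number of copies called higher was 261 for WT stages, 38 in QKO mES cells, 4 in TKO EpiLCs, 40 in QKO EpiLCs, 0 for QKO against TKO mES cells and 6 for QKO against TKO EpiLCs. At a 4-fold threshold, the number of copies called higher was 10 in QKO mES cells, 7 in QKO EpiLCs, 1 for QKO against TKO mES cells and 6 for QKO against TKO EpiLCs. With WT replicates 1 to 4 alone, the MERVL-int family change was 0.45 in LBRKO mES cells, 0.45 in TKO mES cells, 1.16 in QKO mES cells, -1.11 in TKO EpiLCs and -0.48 in QKO EpiLCs, and the MT2_Mm family change was 1.12 for WT stages, 0.34 in TKO mES cells, -1.14 for stage by LBRKO, -1.07 for stage by TKO and -1.08 for stage by QKO. Also, the number of copies called higher was 4 in LBRKO mES cells, 35 in QKO mES cells and 1 in TKO EpiLCs, and the number of copies called lower was 3 in LBRKO mES cells, 0 in TKO mES cells and 1 in QKO mES cells. In that case, the number of 2-cell-like genes called was 5 in LBRKO mES cells, 5 in TKO mES cells and 2 in QKO mES cells, and the unique MERVL-int difference was 0.53 in LBRKO mES cells, 0.45 in TKO mES cells and -0.36 in QKO EpiLCs. There the unique MT2_Mm difference was 0.34 for WT stages, 0.24 in LBRKO mES cells, 0.37 in TKO mES cells and 0.13 in QKO EpiLCs, and the difference of complete proviruses was 0.60 in LBRKO mES cells and 0.49 in TKO mES cells. Likewise, the difference of solo LTRs was 0.067 for WT stages, and the difference of complete proviruses outside genes was 0.34 in LBRKO mES cells. Here the MERVL-int ratio difference was 0.036 in LBRKO mES cells, 0.056 in TKO mES cells and 0.20 in QKO mES cells. With WT replicates 5 to 8 alone, the MERVL-int family change was 0.96 for WT stages, -0.21 in LBRKO mES cells, -0.19 in TKO mES cells, -0.85 in LBRKO EpiLCs, -0.65 for stage by LBRKO, -0.53 for stage by TKO and -0.60 for stage by QKO, and the MT2_Mm family change was -0.098 in LBRKO mES cells, -0.28 in TKO EpiLCs, 0.24 in QKO EpiLCs, -0.42 for stage by LBRKO, -0.35 for stage by TKO and -0.35 for stage by QKO. Also, the number of copies called higher was 30 for WT stages, 3 in TKO mES cells and 11 in QKO mES cells, and the number of copies called lower was 2 in TKO mES cells, 14 in LBRKO EpiLCs and 15 in QKO EpiLCs. In that case, the unique MERVL-int difference was 1.01 for WT stages, -0.12 in LBRKO mES cells, -0.20 in TKO mES cells, 0.47 in QKO mES cells, -0.89 in LBRKO EpiLCs and -0.77 in TKO EpiLCs, and the unique MT2_Mm difference was -0.065 for WT stages, 0.60 in QKO mES cells, -0.35 in TKO EpiLCs and 0.34 in QKO EpiLCs. There the difference of complete proviruses was 1.20 for WT stages, -0.23 in LBRKO mES cells, -0.33 in TKO mES cells, 0.40 in QKO mES cells, -1.19 in LBRKO EpiLCs, -0.93 in TKO EpiLCs and -0.31 in QKO EpiLCs, and the difference of complete proviruses in genes was -0.28 in TKO mES cells. Likewise, the difference of complete proviruses outside genes was -0.41 in TKO mES cells, and the MERVL-int ratio difference was -0.37 in LBRKO mES cells, -0.35 in TKO mES cells and -0.20 in QKO mES cells. With LBRKO replicates 1 and 2 alone, the MERVL-int family change was -0.039 in LBRKO mES cells, and the MT2_Mm family change was -0.018 in LBRKO mES cells. In that case, the number of MT2_Mm-start genes called was 3 in LBRKO EpiLCs, and the unique MERVL-int difference was -1.41 in LBRKO EpiLCs. There the difference of complete proviruses was -1.79 in LBRKO EpiLCs, and the difference of solo LTRs was -0.0035 in LBRKO mES cells. Likewise, the MERVL-int ratio difference was -1.36 in LBRKO EpiLCs. With LBRKO replicates 3 and 4 alone, the MERVL-int family change was -0.77 in LBRKO EpiLCs and -0.95 for stage by LBRKO, and the number of copies called lower was 6 in LBRKO EpiLCs. In that case, the unique MERVL-int difference was -0.59 in LBRKO EpiLCs, and the difference of complete proviruses was -0.91 in LBRKO EpiLCs. There the MERVL-int ratio difference was -1.34 in LBRKO EpiLCs. On gene totals without TMM, the difference of complete proviruses was -0.31 in QKO EpiLCs. Without the 5 copies of highest mean, the unique MERVL-int difference was -0.33 in QKO EpiLCs, and the unique MT2_Mm difference was 0.64 for WT stages, -0.50 in LBRKO EpiLCs, 0.16 in QKO EpiLCs and 0.59 for QKO against TKO mES cells. Here the difference of solo LTRs was 0.46 for WT stages. Over copies outside genes, the unique MERVL-int difference was -0.058 in LBRKO mES cells and -0.58 in QKO EpiLCs, and the unique MT2_Mm difference was 0.66 for WT stages, -0.88 in LBRKO EpiLCs and -0.27 in QKO EpiLCs. Likewise, the difference of complete proviruses was -0.12 in LBRKO mES cells, and the difference of partial loci was -0.18 in QKO EpiLCs. Here the difference of solo LTRs was 0.72 for WT stages and -0.21 in QKO EpiLCs.

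Replicate numbers were not used to pair the samples in the main fit. Of 8 pairs of WT libraries with the same number, 4 had deviations that correlated above 0.1 (r of 0.007 to 0.451). Unmatched libraries were not set beside them, so these values cannot tell whether the samples were paired. With the replicate number as a block, the MT2_Mm family change was -0.017 in LBRKO mES cells, and the number of MT2_Mm-start genes called was 5 in LBRKO mES cells and 3 in TKO mES cells. Here the number of copies called higher was 3 in LBRKO mES cells and 2 in LBRKO EpiLCs, and the number of copies called lower was 2 in LBRKO mES cells. Results of this pairing that are not listed kept their call.

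When each library was left out in turn, the following values changed a call or sign, or moved by over 1.5 times as a count, in some case. The libraries whose loss did so stand in parentheses by genotype and replicate number. The MERVL-int family change ranged from -0.010 to 0.20 in LBRKO mES cells (LBRKO 4), from -1.14 to -0.95 for stage by TKO (mES WT 1, 2, 3 and 4, EpiLC WT 2, 3, 4 and 8, mES TKO 4, EpiLC TKO 1 and 3), from -1.31 to -0.97 in LBRKO EpiLCs (LBRKO 1 and 2) and from -0.39 to -0.27 in QKO EpiLCs (WT 6). The MT2_Mm family change ranged from -0.0029 to 0.087 in LBRKO mES cells (WT 1 and 4, LBRKO 4) and from -0.097 to 0.036 in QKO EpiLCs (QKO 1). The number of copies called higher ranged from 0 to 1 in LBRKO mES cells (WT 5 and 8), from 3 to 6 in TKO mES cells (TKO 2), from 12 to 25 in QKO EpiLCs (QKO 4), from 0 to 2 for QKO against TKO mES cells (TKO 1, 2, 3 and 4, QKO 2, 3 and 4) and from 8 to 12 for QKO against TKO EpiLCs (TKO 1). The number of copies called lower ranged from 0 to 2 in LBRKO mES cells (WT 7, LBRKO 4), from 1 to 2 in TKO mES cells (TKO 3), from 1 to 3 in QKO mES cells (WT 5, QKO 2 and 4) and from 15 to 27 in QKO EpiLCs (QKO 4). The number of MT2_Mm-start genes called ranged from 3 to 5 in TKO mES cells (TKO 4), from 0 to 1 for QKO against TKO mES cells (TKO 1, 2, 3 and 4, QKO 1, 2, 3 and 4) and from 3 to 5 for QKO against TKO EpiLCs (TKO 1 and 3). The unique MERVL-int difference ranged from 0.72 to 0.90 in QKO mES cells (QKO 2, 3 and 4), from -0.29 to -0.22 in QKO EpiLCs (WT 5 and 6), from 0.60 to 0.76 for QKO against TKO mES cells (TKO 1, 2, 3 and 4, QKO 1, 2, 3 and 4) and from 0.57 to 0.68 for QKO against TKO EpiLCs (TKO 1, 2, 3 and 4, QKO 1, 2, 3 and 4). The unique MT2_Mm difference ranged from 0.098 to 0.19 in LBRKO mES cells (WT 7), from 0.23 to 0.33 in TKO mES cells (WT 7), from -0.60 to -0.32 in LBRKO EpiLCs (WT 5 and 6, LBRKO 3), from -0.51 to -0.38 in TKO EpiLCs (WT 1, 7 and 8, TKO 1, 2, 3 and 4), from 0.18 to 0.27 in QKO EpiLCs (WT 1, 5, 6, 7 and 8, QKO 2, 3 and 4), from 0.35 to 0.50 for QKO against TKO mES cells (TKO 1, 2, 3 and 4, QKO 1, 2, 3 and 4) and from 0.61 to 0.73 for QKO against TKO EpiLCs (TKO 1, 2, 3 and 4, QKO 1, 2, 3 and 4). The difference of complete proviruses ranged from -0.0033 to 0.18 in TKO mES cells (WT 4), from 0.72 to 0.91 in QKO mES cells (QKO 2, 3 and 4), from 0.64 to 0.81 for QKO against TKO mES cells (TKO 1, 2, 3 and 4, QKO 1, 2, 3 and 4) and from 0.55 to 0.66 for QKO against TKO EpiLCs (TKO 1, 2, 3 and 4, QKO 1, 2, 3 and 4). The difference of complete proviruses outside genes ranged from -0.071 to 0.20 in TKO mES cells (WT 1, 2 and 4, TKO 3 and 4). The MERVL-int ratio difference ranged from -0.041 to 0.037 in QKO mES cells (WT 5, 6, 7 and 8, QKO 1, 2 and 4), from 0.11 to 0.16 for QKO against TKO mES cells (TKO 1, 2, 3 and 4, QKO 1, 2, 3 and 4) and from -0.23 to -0.20 for QKO against TKO EpiLCs (TKO 1, 2, 3 and 4, QKO 1, 2, 3 and 4). The number of 2-cell-like genes called ranged from 0 to 1 for QKO against TKO mES cells (QKO 3) and from 2 to 4 for QKO against TKO EpiLCs (TKO 3, QKO 1).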
